A study of Homo sapiens with 2 samples.

Results

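The genes MIR138-1, AGO2 and LIN28B, which serve the production and action of microRNAs, are described here in H1299, a widely used cell line from a human non-small cell lung carcinoma, after delivery of a miR-138 mimic or an NC mimic, the control of the design. A mimic is a synthetic stand-in for a mature microRNA. The members were taken by gene name from the platform's annotation, but they were chosen by a reading of the same 2 arrays, so their differences are a description and support nothing. They are 3 of the 243 transcript clusters in the deposited table, with 1 transcript cluster per gene (a transcript cluster gathers the probes that the array design assigns to a gene). The comparison is a single one, between 1 culture given the miR-138 mimic and 1 given the NC mimic. Both were grown with 10% fetal bovine serum, lipofected at 70% confluence and profiled at 48 h, with 1 whole-transcript array each. Neither the sequence and dose of the mimics nor further cultures are given in the labels.

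MicroRNAs are short RNAs cut from hairpin precursors. A mature strand is loaded into an Argonaute protein and pairs, mainly through its seed (bases 2 to 8), with sites in messenger RNAs, which are then translated less and degraded. MIR138-1 is a gene for the precursor of miR-138, AGO2 encodes the Argonaute protein that can also slice its target, and LIN28B encodes an RNA-binding protein that blocks maturation of the let-7 family. Let-7 in turn represses LIN28B, and both are studied in lung cancer for their effects on growth genes.

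The mature strands of miR-138 are shown first, because the mimic and the MIR138-1 feature are both named for them. All sequences are RefSeq's on GRCh38.p14, 5′ to 3′, and capitals mark the seed in mature strands.
miR-138-5p: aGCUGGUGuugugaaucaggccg
miR-138-1-3p: gCUACUUCacaacaccagggcc
miR-138-2-3p: gCUAUUUCacgacaccaggguu
The 5p strand is 23 bases long, and its seed was carried by 1 mature name among the 2370 in the RefSeq table. A pair of genes, MIR138-1 on chromosome 3 and MIR138-2 on chromosome 16, encode this identical strand. The 3p strands of the pair match at 18 of 22 bases. Counted from the 5′ end, with the MIR138-1 base first, the differences are C5U, A11G, C21U and C22U. The first of these lies in the seed.

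The hairpins differ more than their 5p strands do. They are printed whole, with the mature strands in capitals, because the deposited feature is annotated to the first gene alone.
MIR138-1: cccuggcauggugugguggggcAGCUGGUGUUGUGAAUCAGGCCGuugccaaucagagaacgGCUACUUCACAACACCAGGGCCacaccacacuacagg
MIR138-2: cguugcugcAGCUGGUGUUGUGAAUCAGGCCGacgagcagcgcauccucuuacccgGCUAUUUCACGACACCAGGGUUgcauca
The MIR138-1 hairpin lies at chr3:44114212-44114310 on the plus strand and is 99 bases long, with the 5p strand at bases 23 to 45 and the 3p strand at bases 63 to 84. The MIR138-2 hairpin lies at chr16:56858518-56858601 on the plus strand and is 84 bases long, with the strands at bases 10 to 32 and 57 to 78. No feature of the table was annotated to MIR138-2. The table lists only differences of at least 2-fold, so this absence says nothing of the signal of MIR138-2.

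**Figure D1:**
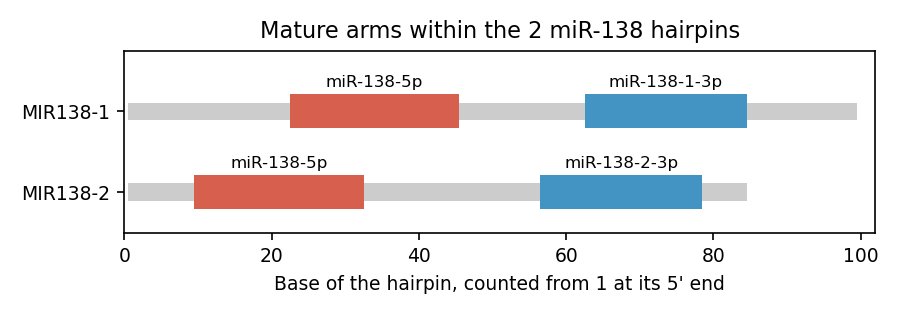
Position of the mature strands in the hairpins of MIR138-1 (99 bases) and MIR138-2 (84 bases), with bases counted from the 5′ end. Red bars are the shared miR-138-5p strand, blue bars the 3p strands and grey the rest of the hairpin.

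On the array, the MIR138-1 cluster had a log2 signal of 14.07 with the miR-138 mimic and 6.13 with the NC mimic. The high value lay on the array whose label names miR-138. On the linear scale these are 17199 and 70.0 signal units, and the log2 difference of 7.94 is 246-fold. The values were deposited with 2 decimals, and that rounding alone allows 244-fold to 247-fold. No other error can be attached, since there was 1 array per mimic. The difference stood apart from the rest of the table. It was 4.99 above the next in its direction, 2.95 for the interferon-induced gene IFI44L (7.44 against 4.49). Quantile normalization of the 2 columns gave 7.22 (149-fold). As the mimic is named for the microRNA that this gene encodes, signal from the mimic and from the cells' own transcripts cannot be told apart.

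The AGO2 signal was lower with the miR-138 mimic. The cluster read 7.28 on the log2 scale against 9.19 with the NC mimic, or 155 and 584 linear units. The log2 difference was -1.91, a signal 3.76-fold lower, and rounding allows 3.73-fold to 3.78-fold. This ranked 11 among the 139 lower features and 24 by size among all 243. Among the lower features, the named genes on either side were TMT1A, a methyltransferase, at -1.96 and AQP3, a water and glycerol channel, at -1.85. Neither can be separated from AGO2 without replicates. The feature carried 2 symbols in the annotation, AGO2 and its older name EIF2C2, so a count of features with a single symbol leaves it out.

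LIN28B was higher with the miR-138 mimic. Its log2 signal was 8.04 there and 6.46 with the NC mimic, or 263 and 88.0 linear units. The log2 difference was 1.58, a signal 2.99-fold higher, and rounding allows 2.97-fold to 3.01-fold. This ranked 25 among the 104 higher features and 49 by size among all 243. Among the higher features, the named genes on either side were MEIOC, a meiosis gene, at 1.62 and the zinc finger gene ZNF844 at 1.57.

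Thus 2 of the 3 members were higher and 1 was lower. Among all features listed, 42.8% were higher and 57.2% were lower, each by at least 2-fold, because the smallest difference in the table is 1.0 on the log2 scale. Nothing about the members is read from those shares. The mean log2 levels were 10.1 for MIR138-1, 8.24 for AGO2 and 7.25 for LIN28B, and all 3 means lay above the lowest 25% of the table (6.57). With the NC mimic alone, MIR138-1 (6.13) and LIN28B (6.46) read below 6.57. They pass this mark only through the miR-138 array, on which they are high.

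**Figure D2:**
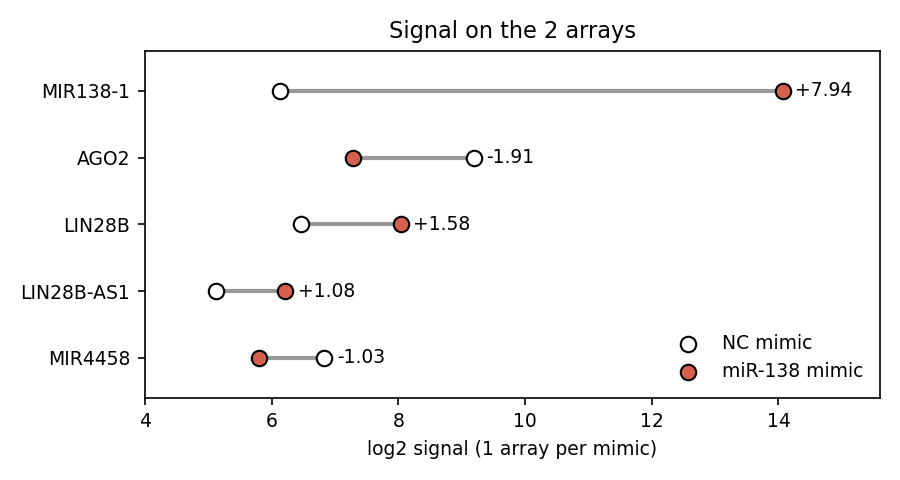
Log2 signal of each transcript cluster with the NC mimic (white) and the miR-138 mimic (red), 1 array each, with the difference printed beside it. MIR138-1, LIN28B and LIN28B-AS1 were higher with the miR-138 mimic, and AGO2 and MIR4458 were lower.

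**Figure D3:**
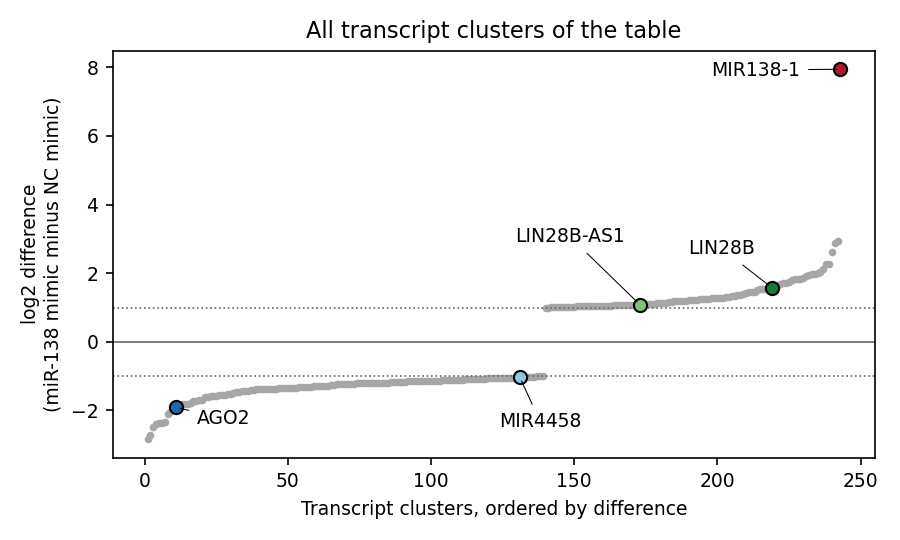
Log2 difference (miR-138 mimic minus NC mimic) of all 243 transcript clusters, ordered from the lowest to the highest. Dotted lines mark 1 and -1, between which the table holds nothing. MIR138-1 stands alone at 7.94, AGO2 lies near the lower end and LIN28B in the upper part of the higher features.

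The table held a second feature at the LIN28B locus. LIN28B-AS1, an antisense long non-coding RNA gene whose listed start lies beside one of LIN28B, had a log2 signal of 6.21 with the miR-138 mimic and 5.13 with the NC mimic. Its difference of 1.08 (2.11-fold) had the same direction as that of LIN28B. It was a dim feature, with a mean level of 5.67 inside the lowest 25%, and it ranked 185 by size. LIN28B-AS1 is no member and was picked after its value was seen. Hybridisation shared between the neighbouring transcripts was not tested, because probe sequences were not used here.

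The start regions of this pair are shown because both features lay on the higher side, as did 42.8% of all features. Whether the pair share control was not tested. Each window runs from 250 bases before to 50 after a RefSeq start on GRCh38.p14, and capitals mark the 63 bases that the windows share on opposite strands.
LIN28B, first start: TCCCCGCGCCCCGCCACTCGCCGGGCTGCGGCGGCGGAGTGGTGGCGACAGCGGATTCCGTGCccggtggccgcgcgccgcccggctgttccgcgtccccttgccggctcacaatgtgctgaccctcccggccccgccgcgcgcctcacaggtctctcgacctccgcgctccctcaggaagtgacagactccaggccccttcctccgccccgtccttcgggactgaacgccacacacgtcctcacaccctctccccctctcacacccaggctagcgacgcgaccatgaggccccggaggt
LIN28B-AS1: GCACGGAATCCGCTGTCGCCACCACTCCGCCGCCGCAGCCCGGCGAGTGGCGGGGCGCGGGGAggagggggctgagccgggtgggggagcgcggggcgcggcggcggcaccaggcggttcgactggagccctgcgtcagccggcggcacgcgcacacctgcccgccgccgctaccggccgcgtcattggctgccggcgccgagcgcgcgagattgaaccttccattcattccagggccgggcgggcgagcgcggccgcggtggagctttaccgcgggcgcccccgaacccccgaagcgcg
The LIN28B window is chr6:104940715-104941014 on the plus strand and the LIN28B-AS1 window is chr6:104940478-104940777 on the minus strand. Their starts lie 438 bases apart and point away from each other. A further LIN28B start is listed 16142 bases downstream of the first, and its window is chr6:104956857-104957156 on the plus strand. The array value does not separate transcripts from these starts.

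The windows of the divergent pair were rich in G and C. The share was 73.0% for the first LIN28B start and 78.0% for LIN28B-AS1, against 39.0% for the downstream LIN28B start and a median of 58.7% over 35116 windows. The CG dinucleotide occurred 37 times in the first LIN28B window, 51 times in the LIN28B-AS1 window and 8 times in the downstream one, with a median of 14 over all windows. Fewer CG pairs were found in 88.7%, 99.0% and 39.3% of all windows, respectively.

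In all, 4 short motifs were searched on both strands of these windows, and none of the 4 lies within another. The GC box GGGCGG occurred 2 times in the first LIN28B window, 1 time in the LIN28B-AS1 window and 0 times in the downstream one, and 45.0% of all windows hold it. The CCAAT box occurred 0, 1 and 1 times in the same order, against 34.6% of windows. The TATA motif TATAAA occurred in none of the 3, and 11.5% of windows hold it. The E-box CACGTG occurred 1 time, in the downstream LIN28B window, and 7.26% of windows hold it. These are matches of letters only.

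A second microRNA gene in the table carries the seed of let-7. MIR4458 had a log2 signal of 5.80 with the miR-138 mimic and 6.83 with the NC mimic. Its difference of -1.03 (2.04-fold lower) lay close to the limit of the table, at rank 221 by size, and its mean level of 6.32 was inside the lowest 25%. LIN28B was higher on the array on which MIR4458 was lower, and a link between them was not tested. Of all features in the table, 42.8% were higher and 57.2% lower. Whether this feature reads the precursor or the mature strand was not tested, because probe sequences were not used here.

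The mature strand of miR-4458 is set beside the let-7 family because they share a seed, again in capitals.
miR-4458: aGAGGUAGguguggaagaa
let-7a-5p: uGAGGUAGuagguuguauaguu
let-7b-5p: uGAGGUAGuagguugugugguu
let-7c-5p: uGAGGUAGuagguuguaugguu
let-7d-5p: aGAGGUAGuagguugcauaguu
let-7e-5p: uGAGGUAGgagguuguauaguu
let-7f-5p: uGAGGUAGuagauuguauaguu
let-7g-5p: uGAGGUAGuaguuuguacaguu
let-7i-5p: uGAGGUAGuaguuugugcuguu
miR-98-5p: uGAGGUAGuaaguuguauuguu
miR-4500: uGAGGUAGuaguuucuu
Among RefSeq's mature strands, 11 names from 14 genes carry this seed, GAGGUAG. Of these genes 1, MIR4458, had a feature in the value table and 13 had none. A gene whose feature differed by less than 2-fold would not be listed there. Counted from base 2, miR-4458 is identical to let-7e-5p over 8 bases and to each of the other names over 7, after which the sequences part. Another 2 features carried a microRNA symbol beside another gene and were assigned to neither.

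Other genes of the pathway were sought in lists drawn up with earlier results of these data known. Of 31 symbols for microRNA production, from the nuclear and cytoplasmic cutting enzymes to the factors that tail let-7 precursors, 1 was in the table, LIN28B. Of 53 symbols for microRNA action, covering the Argonautes, their GW182 partners and the deadenylation and decapping factors, 1 was in the table, AGO2. Both are members chosen beforehand, so each list was bound to have a match and nothing is read from these counts. Some symbols are older names of others on the lists, such as EIF2C2 for AGO2. No further symbol of either list matched a feature with 1 current gene name, and those genes were not analysed here. The table shows no difference smaller than 2-fold.

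Of 57 symbols on a list of reported let-7 targets and genes tied to them, 3 were in the table and 3 were higher, where 42.8% of all 243 features were higher. Their median log2 difference was 1.93, against -1.05 over all features, a value that follows the larger share of lower features because the table holds nothing between -1 and 1. Of the 3, 1 is LIN28B, a member chosen with its value known, so nothing is read from the count. They were LIN28B itself, the cytokine gene IL6 and HMOX1, which encodes a heme-degrading enzyme. IL6 stood at 8.29 with the miR-138 mimic against 6.28, a difference of 2.01. HMOX1, listed for its control by the let-7 target BACH1 and not as a direct target, stood at 10.36 against 8.43, a difference of 1.93. Of 64 symbols named as miR-138-5p targets in the literature, as recalled for this list, 1 was in the table. This was FOSL1, a subunit of the AP-1 transcription factor, higher with the miR-138 mimic at 10.46 against 9.28, a difference of 1.18. As 42.8% of all features were higher, nothing is read from this 1 gene. Some of the 64 symbols are older names of others on the list. Neither AGO2 nor LIN28B was on that list, and target sites in their transcripts were not searched because transcript sequences were not used here.

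The named genes most like each member were found by the Euclidean distance between their pairs of log2 values, over 2 arrays. For LIN28B they were ANKRD1, a muscle ankyrin-repeat gene (8.16 against 6.33), and ZNF844 (8.16 against 6.59), both at a distance of 0.177, and PARP9, of the ADP-ribosyltransferase family (7.85 against 6.56), at 0.215. For AGO2 they were the mechanosensitive channel gene PIEZO2 (7.53 against 9.14) at 0.255, the natriuretic peptide receptor gene NPR1 (7.56 against 9.08) at 0.301 and the gut hormone receptor gene GLP2R (7.52 against 8.90) at 0.376. MIR138-1 had no close neighbour. The nearest were HMOX1 at 4.37, the arrestin-domain gene ARRDC3 at 4.53 and the growth arrest gene GADD45A at 4.77. With 2 values per gene, such closeness says only that a pair of features had like levels and a like difference.

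**Figure D4:**
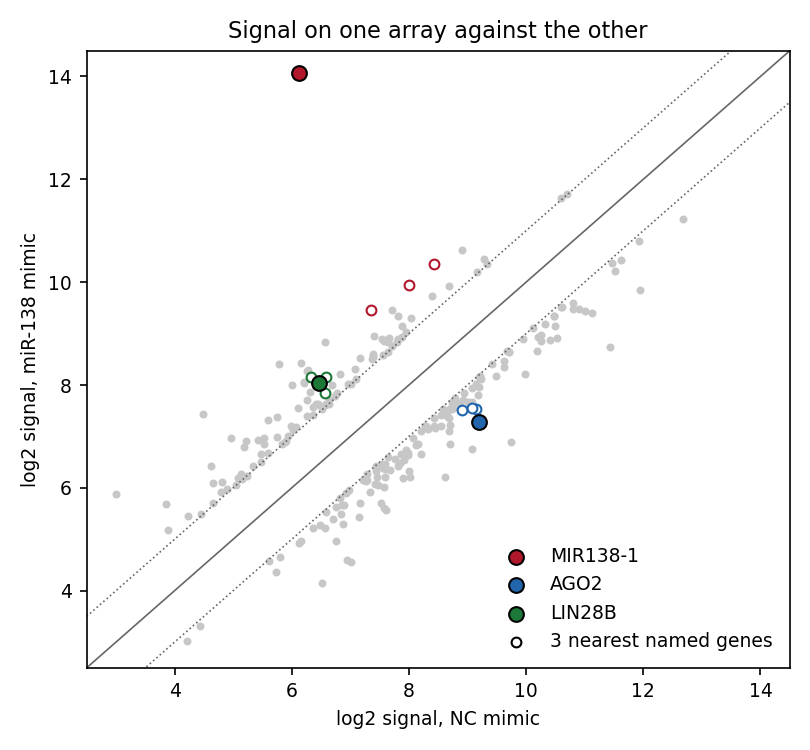
Log2 signal with the miR-138 mimic against log2 signal with the NC mimic for the 243 transcript clusters, with the line of equality and dotted lines at a difference of 1 either way. Open circles are the 3 nearest named genes of each member: they crowd around LIN28B and AGO2 and lie over 4 log2 units from MIR138-1.

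Each member had the largest difference in its direction among the features coded to its own chromosome. The members were chosen with their values known, which favours such a place, so it supports nothing. On chromosome 8, 5 of the 7 other features were lower, down to -1.70 for POU5F1B, a retrogene copy of a pluripotency factor gene, against -1.91 for AGO2. On chromosome 6, counting 1 feature coded to a haplotype of it, 6 of the 14 other features were higher, up to 1.45 for RBM24, an RNA-binding protein gene, against 1.58 for LIN28B. On chromosome 3, 4 of the 9 other features were higher, up to 1.45 for PARP14, against 7.94 for MIR138-1. Of all 243 features 42.8% were higher and 57.2% lower, so nothing is read from these counts by chromosome. The margins for AGO2 and LIN28B are small, and without replicates their order is a description of these 2 arrays.

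**Figure D5:**
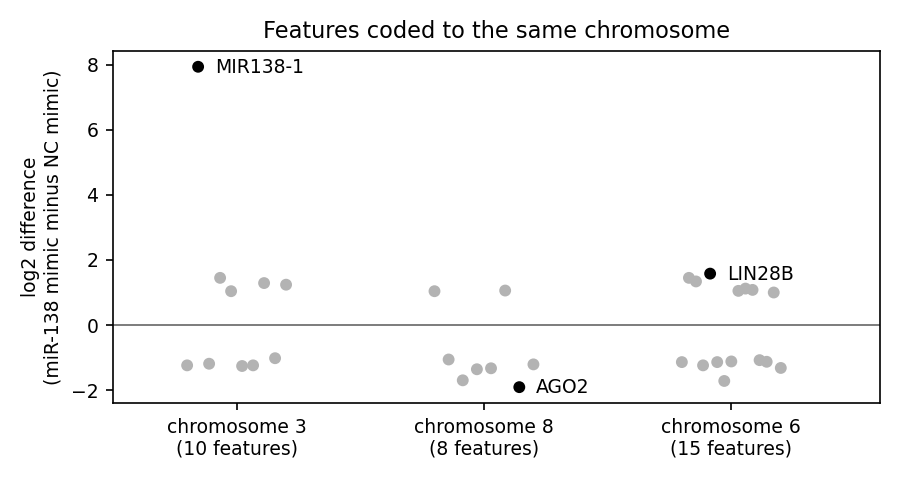
Log2 difference (miR-138 mimic minus NC mimic) of every feature coded to chromosome 3 (10 features), 8 (8 features) or 6 (15 features, 1 of them on a haplotype of that chromosome), with the member in black and its horizontal place within a column carrying no meaning. AGO2 is the lowest point of its column, and MIR138-1 and LIN28B are the highest of theirs.

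The labelled cell type could not be checked in this table, which held 0 of 9 lung epithelial cancer markers, 0 of 4 endothelial and 0 of 7 immune markers. Of 7 fibroblast markers it held 1, the matrix gene DCN, whose signal was lower on the miR-138 array (4.55 against 7.02, -2.47). Its part in the members' differences was not tested. In RNA from whole cultures, a change in the make-up of the culture and a change per cell cannot be told apart.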

How the data were processed

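Total RNA of 2 H1299 cultures was amplified, biotin-labelled and hybridised to 1 array each. The deposited values are log2 signals with 2 decimals, made by the authors with Affymetrix Expression Console per the submitters' processing notes. Neither the version nor how probes were summarised, arrays normalised and features filtered is given in these sources. Log2 was inferred from the values: the highest, 14.07, is 17199 linear units, within the 65535 that a 16-bit scan can hold. The table holds only differences of at least 1.0.

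Of 243 features, 221 had 1 current gene name (220 had 1 symbol, and AGO2 had an old and a current one), 9 had several genes and 13 were unnamed here. Symbols were updated through a human gene table (GRCh38.p14). All gene lists were matched only to features with 1 current gene name. The feature IDs name no build, so coordinates are given for RefSeq sequences only. The chromosome of a feature is the one coded in its ID.

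Differences subtract the NC value from the miR-138 value. A single array in each group leaves no replicate spread, so nothing was tested and no p-value is printed. Depth does not apply to arrays, and their number limits the precision. Genes named are the members, their neighbours in order of difference within a direction, the 3 nearest named genes of each, and list members in the table. LIN28B-AS1 and the next gene on each chromosome were named after their values were seen. The members and lists were chosen with earlier results of these data known. The code for the differences and rescalings was checked on simulated data, which does not show how far the array differences can be trusted. Alternatives were centring, quantile normalization, a filter on dim features, a fold limit and features with 1 symbol. Python 3.11.15, NumPy 2.4.6, pandas 2.3.3 and Matplotlib 3.10.9 were used.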

Additional observations from a re-analysis of the deposited data

How the results depend on the processing

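No direction of a member changed under the alternatives run. Centring moved each difference by 0.06 or 0.13, and the filters leave the values as they are, so these settings could not reverse a member. Centring on the table's median gave log2 differences of 8.0 for MIR138-1, -1.85 for AGO2 and 1.64 for LIN28B, and centring on the median outside the lowest 25% of levels gave 8.07, -1.78 and 1.71. Quantile normalization gave 7.22, -1.69 and 1.74. It pulls MIR138-1 down by construction, since the highest values of both columns are averaged. Features with 1 symbol leave out AGO2 and keep the other members' values. Centring on the table's median left 104 features higher and 121 lower by at least 1.0. Outside the lowest 25% of levels 69 features were higher and 113 lower, and at a log2 difference of 2 or more there were 9 higher and 9 lower, with MIR138-1 alone of the members among them. Both columns come from a list already limited to differences of 1.0, so no rescaling could use unchanged genes. No paired analysis was possible because each mimic had a single array, so no replicate could be left out either.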
